A study of Mus musculus with 4 samples.

Results

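Chromatin accessibility was described at 10 genes of oxygen sensing and the response to hypoxia in cultured mouse bone mesenchymal stem cells (MSCs): Egln1 and Egln3, which encode oxygen sensors, Hif1a and Epas1, which encode the oxygen-regulated subunits of the hypoxia-inducible factors (HIFs), and Slc2a1, Ldha, Pdk1, Bnip3, Vegfa and Ankrd37, which are HIF target genes. Every ATAC-seq peak that overlapped one of these genes, or the 5 kb upstream of its start, was taken. The rule used positions only, and it gave 42 of the 117282 peaks, with at least 2 peaks at each gene. ATAC-seq inserts sequencing adapters into open chromatin with a transposase, so that the reads at a peak measure how accessible the DNA is there, and neither transcripts nor protein were measured in these samples.

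The old group held MSCs of mice aged 18 to 22 months (2 samples) and the young group held MSCs of mice aged 3 to 5 months (2 samples). All 4 samples were kept at 2% O2 without any culture at a higher oxygen level, and neither group carried a genetic change, so the comparison was one of age within a low-oxygen culture and not one of oxygen levels. The study's methods describe the cells as an outgrowth from collagenase-treated hind limb bone of C57BL/6N mice, sorted as CD45-, Ter-119-, Sca-1+ and CD140a+ cells after a culture period. Those methods name only wild-type male mice aged 3 to 5 months, so that they hold for the old group is assumed. Nothing in the labels says that the 2 samples of a group came from separate mice, so p-values measure the spread between these samples, which may be technical.

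Cells sense oxygen through prolyl hydroxylases, which use oxygen to mark the alpha subunits of the HIFs for destruction. When oxygen is low, the subunits escape this mark, pair with ARNT and bind DNA at short sites with the core letters ACGTG or GCGTG. The genes that they activate shift metabolism from respiration to glycolysis, remove mitochondria and raise the supply of blood vessels, and Egln1 and Egln3 are themselves among them. Bone marrow is a low-oxygen tissue, and this pathway is known there for its part in stem cell maintenance and in the coupling of vessels to bone.

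The DNA ahead of 5 of the start sites is shown because it carries the core letters of HIF sites, at a HIF subunit, a sensor and 3 targets. The sequences are RefSeq promoter windows of GRCm38.p6, trimmed to the bases upstream of the start that no annotated exon covers. Each is written 5′ to 3′ on the strand of its gene. Capitals mark ACGTG or GCGTG on that strand, or CACGT or CACGC where the core is read on the other strand. The 6 letters CACGTG hold ACGTG on both strands.
Hif1a, chr12:73907617-73907866, plus strand: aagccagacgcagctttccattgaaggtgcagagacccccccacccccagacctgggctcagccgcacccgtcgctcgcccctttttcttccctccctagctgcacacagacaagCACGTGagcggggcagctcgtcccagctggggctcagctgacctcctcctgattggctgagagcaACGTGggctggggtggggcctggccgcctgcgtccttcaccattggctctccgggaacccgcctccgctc
Egln3, chr12:54203875-54204124, minus strand: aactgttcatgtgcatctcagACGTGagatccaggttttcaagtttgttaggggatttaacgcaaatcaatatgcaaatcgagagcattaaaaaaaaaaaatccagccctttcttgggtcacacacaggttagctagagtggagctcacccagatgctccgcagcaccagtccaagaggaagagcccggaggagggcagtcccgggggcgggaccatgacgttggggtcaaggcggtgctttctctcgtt
Ldha, chr7:46845554-46845803, plus strand: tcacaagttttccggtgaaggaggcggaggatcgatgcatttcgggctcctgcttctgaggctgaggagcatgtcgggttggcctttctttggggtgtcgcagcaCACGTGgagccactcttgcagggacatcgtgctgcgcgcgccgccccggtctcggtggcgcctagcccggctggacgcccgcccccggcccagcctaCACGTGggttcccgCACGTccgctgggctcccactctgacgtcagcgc
Bnip3, chr7:138909520-138909756, minus strand: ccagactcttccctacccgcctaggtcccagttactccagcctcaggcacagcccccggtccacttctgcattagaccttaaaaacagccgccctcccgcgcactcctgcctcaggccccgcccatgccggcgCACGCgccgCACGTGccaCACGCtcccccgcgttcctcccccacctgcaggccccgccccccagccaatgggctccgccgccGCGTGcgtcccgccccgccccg
Ankrd37, chr8:45999868-46000100, minus strand: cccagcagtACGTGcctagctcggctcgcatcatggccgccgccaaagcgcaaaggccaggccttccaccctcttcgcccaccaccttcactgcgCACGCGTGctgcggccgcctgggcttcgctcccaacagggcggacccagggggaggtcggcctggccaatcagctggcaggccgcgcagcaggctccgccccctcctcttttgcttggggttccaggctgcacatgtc

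The RefSeq windows of 300 bases (250 before the start and 50 after it) were available for 9 of the 10 genes, Epas1 being the other, with 12 windows in all. The core ACGTG or GCGTG, on either strand, was in 10 of the 12 member windows and in 43.8% of all 32851 windows. Counted alone, ACGTG was in 8 member windows and in 19.6% of all windows, and GCGTG was in 8 member windows and in 32.4% of all. The palindrome CACGTG was in the windows of Hif1a, Ldha and Bnip3 and in 7.15% of all windows. Member windows had a median GC content of 65.7% against 52.7% over all windows, and among the 5581 windows with at least the members' median GC content the share with either core was 72.0%. At Ldha the core ACGTG began 144 and 47 bases before the start on the gene's strand, within the pair of CACGTG palindromes shown. At Bnip3 it began 107 bases before the start, within 1 such palindrome. The first Vegfa window had none of these letters, while a second Vegfa window, at an internal start, had both cores. A match gives the letters only and does not show that a HIF was bound.

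Depth was similar between libraries, with a total of 28600303 in the first and 32559794 in the second old sample, and of 28259470 and 29413803 in the young ones. Values were deposited as counts per 10000000 of the library total, without division by the length of the peak, and 3 counts were worth between 0.921 and 1.06 units. Old replicate 1 stood apart from the other 3 libraries: it had the lowest deposited value at 30 of the 42 member peaks (71.4%) and at 56.3% of all peaks, and the lowest sum at 10 of the 10 genes. Its relative log expression (RLE) factor, which equalises the typical peak between samples, was 0.813, against 1.01, 1.07 and 1.15 for old replicate 2 and young replicates 1 and 2. Results that rest on this library are therefore given with and without it. Old replicate 2 had the smallest share of its summed value on the mitochondrial chromosome, 6.52%, where the other libraries had 13.5% to 15.7%.

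Start-site peaks of cell type markers were listed beside the labelled cell type. All 13 bone MSC markers had one, and their summed deposited values were 3545, 5234, 4571 and 5017 in old replicates 1 and 2 and young replicates 1 and 2. Among 8 blood and macrophage markers 5 had a start-site peak, with sums of 403, 694, 706 and 663, of which Cd68 was the most abundant per kb. Ptprc and Cd3e, which mark blood lineages, had none, nor did the endothelial markers Cdh5 and Emcn or the fat cell marker Adipoq. Of 4 endothelial markers Pecam1 and Tek had a start-site peak, and their sums, 31.1, 40.2, 60.2 and 58.1, were lower in both old samples, with Tek the most abundant per kb. The lower sums came from Tek (22.0 and 28.3 in old, 53.4 and 49.3 in young), while Pecam1 held 9.09 and 12.0 in old and 6.72 and 8.84 in young samples. The 3 adipocyte markers, led by Fabp4, gave sums of 97.9, 117, 94.8 and 121 over Plin1 and Fabp4, and the 4 osteoblast markers, led by Dmp1, gave 74.8, 87.2, 105 and 96.6. The sums are not divided by peak length and cover unlike numbers of genes, so they do not rank the lists by accessibility. Per kb of peak, the median was 20.1 for bone MSC, 21.6 for blood and macrophage and 17.7 for endothelial markers. It was 13.7 for adipocyte and 12.5 for osteoblast markers. None of these marker peaks passed an adjusted p of 0.01 between old and young (limma, Benjamini-Hochberg adjustment). The part of such cells in the results at the hypoxia genes was not tested.

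The member peaks were wider and stronger than the typical peak, with a median width of 2350 bases against 1200 over all peaks and a median deposited value of 32.6 against 16.0. By position, 13 lay within 1 kb of a protein-coding start, 15 in introns, 5 on coding exons, 5 on untranslated exons and 4 upstream. Hif1a had 10 peaks, Epas1 7, Egln1, Egln3 and Vegfa 4 each, Pdk1, Ldha and Ankrd37 3 each, and Slc2a1 and Bnip3 2 each. The widest was at Slc2a1, where 1 peak of 27.7 kb covered most of the gene.

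Levels between genes were compared per kb of peak, at the start-site peak with the highest mean value of each gene and on the deposited values. Bnip3, which encodes a mitochondrial receptor for mitophagy, and Ldha, which encodes a lactate dehydrogenase subunit, were highest, at 62.9 ± 13.8 and 60.3 ± 7.98 per kb (SD over 4 samples). The place of Ldha rests on the peak that ends before its first annotated start, and its other strong start-site peak, around the sequence shown, was at 43.9 ± 8.25 per kb. Pdk1, whose kinase inhibits the conversion of pyruvate to acetyl-CoA, followed at 49.8 ± 9.58, and Ankrd37, an ankyrin repeat gene, at 44.0 ± 7.39. Hif1a stood at 31.9 ± 5.25. Epas1, Egln1 and Slc2a1 lay together at 27.1 ± 6.92, 27.0 ± 4.97 and 26.8 ± 2.89, next to the median of 27.35 over the 16213 promoter peaks, and their order changed from sample to sample. Vegfa, at 21.8 ± 4.96, and Egln3, at 19.1 ± 2.50, were lowest. Each of Ldha, Pdk1, Ankrd37 and Vegfa exceeded the next gene in that order in 4 of 4 samples. Bnip3 exceeded Ldha, Hif1a exceeded Epas1 and Slc2a1 exceeded Vegfa in 3 of 4, so the order of these 3 pairs was not the same in every sample. Differences between genes were not tested. Among all promoter peaks, Bnip3 lay at percentile 91.1 and Egln3 at percentile 33.2. The peaks compared differed in width. Slc2a1, Vegfa and Hif1a lay at width percentiles 99.6, 95.4 and 92.7 of the promoter peaks, Egln3 at 87.6, Bnip3 at 85.7 and Pdk1 at 44.8. The part of width in this order was not tested.

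**Figure D1:**
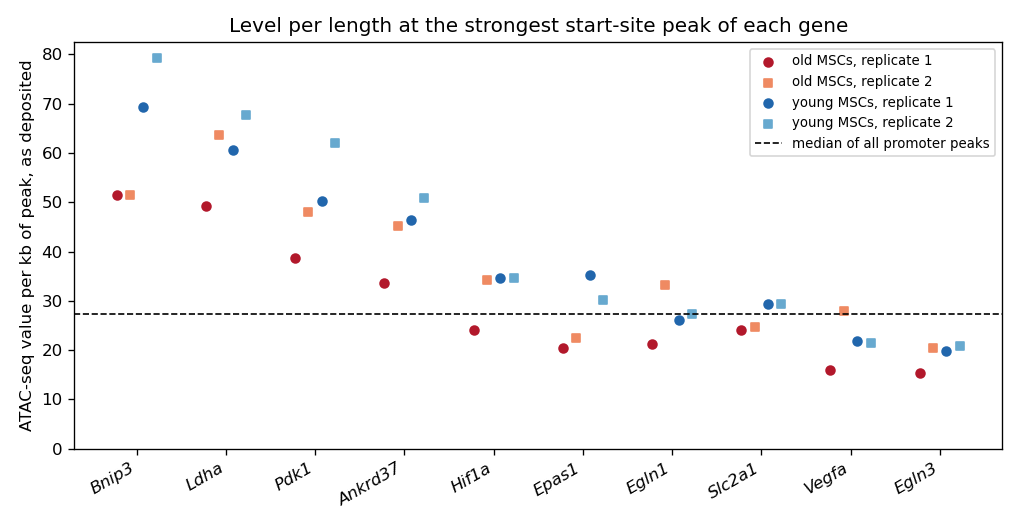
ATAC-seq value per kb of peak as deposited (y axis) at the strongest start-site peak of each gene, ordered by mean, with 1 point per sample and the median of all promoter peaks as a dashed line at 27.35. Bnip3, Ldha, Pdk1 and Ankrd37 lay above the line in all 4 samples, and old replicate 1 was the lowest point at each of the 10 genes.

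On the deposited values, most peaks of the hypoxia genes had lower values in old MSCs, and so did most peaks of the genome; whether these shares differ was not tested. The summed value of all 42 peaks was 3342 ± 530 in old and 4125 ± 178 in young MSCs (SD, n = 2 each), a ratio of 0.810, with p = 0.333 in a two-sided exact permutation test, the smallest p that the 6 splits of 4 samples allow. The median log2 difference was -0.29 over the member peaks, with 35 of 42 lower in old MSCs (83.3%), and -0.27 over all peaks, with 74.6% lower. It depended on the library: old replicate 1 lay 0.40 and 0.55 below young replicates 1 and 2, as medians on the log2 scale, while the medians for old replicate 2 were -0.0064 and -0.098. Both old samples lay below both young ones at 18 member peaks (42.9%; 43.5% of all peaks) and above them at 4 (9.52%; 7.56% of all peaks). By gene, Hif1a, Epas1, Slc2a1, Ldha and Bnip3 were lower in both old samples and 0 of 10 were higher, against 52.6% and 1.94% of all genes. After division by the RLE factors, the summed values were 3672 ± 27.7 and 3730 ± 26.9, a ratio of 0.984, with the same exact permutation p of 0.333, and the median difference was -0.0083 with 21 of 42 lower. Over all peaks, the deposited values summed to 4.38e+06 and 5.03e+06 in old and to 5.75e+06 and 6.29e+06 in young replicates 1 and 2. The values are scaled to the library total, so both old libraries had a smaller share of that total in peaks. The part of this share in the lower deposited values was not tested. In bulk samples, fewer cells with an open site and less opening per cell cannot be told apart either.

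All further values were divided by the RLE factors, and differences are log2 of old over young on the scaled value + 1, so they leave out the offset just described. None of the 42 member peaks passed an adjusted p of 0.01 (limma, Benjamini-Hochberg adjustment over all peaks), which 0.0563% of all peaks did (0.0307% lower and 0.0256% higher in old). The smallest adjusted p was 0.101, at an intronic peak of Egln1. At an unadjusted p under 0.05 there were 5 member peaks (11.9%), 2 lower and 3 higher in old MSCs, against 16.4% of all peaks (8.87% lower and 7.49% higher). Both old samples lay below both young ones at 9 member peaks (21.4%; 24.2% of all peaks) and above them at 9 (21.4%; 23.2% of all peaks). These shares were near or under those of all peaks.

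With the peaks summed per gene, 0 of the 10 genes passed an adjusted p of 0.01, which 0.0116% of the 17308 genes with a peak did, and 0 of 10 reached an unadjusted p of 0.05, which 8.33% of all genes did (limma). The smallest adjusted p of a member gene was 0.642. The 95% intervals of the old over young ratio ran from 0.694 to 1.05 at Bnip3, from 0.767 to 1.09 at Hif1a, from 0.828 to 1.20 at Ldha and from 0.922 to 1.51 at Vegfa, and each of the 10 held 1. Old lay below young in both samples at Hif1a, Epas1 and Bnip3 (25.2% of all genes), above young at 0 of 10 (16.4% of all genes), and overlapped at the other 7.

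**Figure D2:**
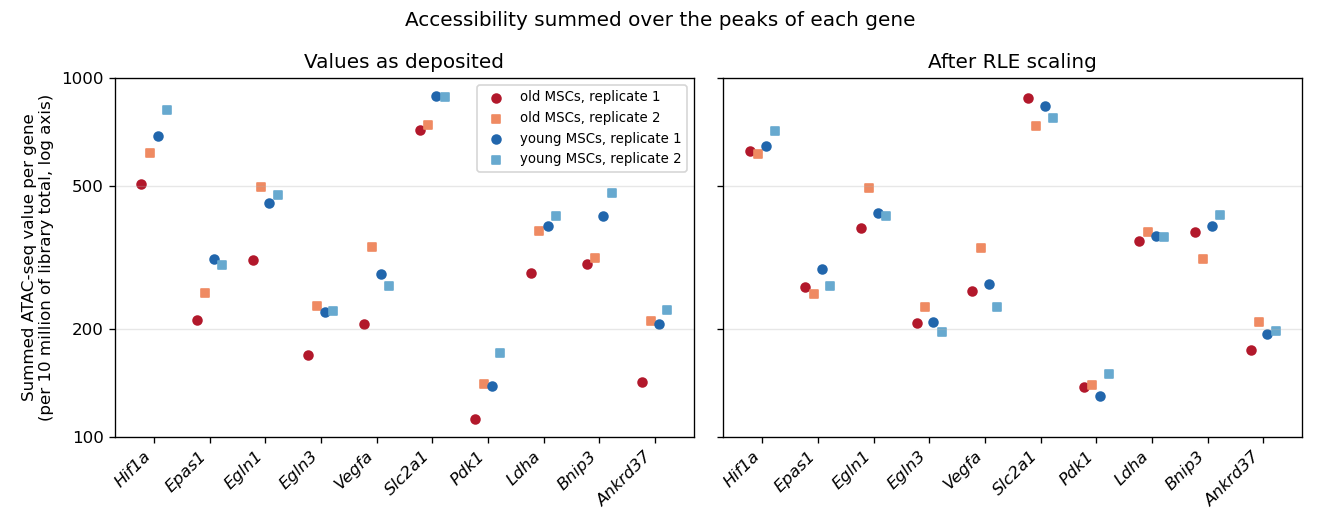
Summed ATAC-seq value over the peaks of each gene (y axis, log scale), as deposited on the left and divided by RLE factors on the right, with 1 point per sample. On the left old replicate 1 is the lowest sample at 10 of 10 genes, and on the right the samples of both ages intermix at 7 of 10.

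Egln1 and Egln3 encode the prolyl hydroxylases PHD2 and PHD3, the first being the main oxygen sensor in most cells. At Egln1 (chr8:124908587-124949324, minus strand, GRCm38) the scaled sums were 383 and 493 in old and 421 and 413 in young replicates 1 and 2. The groups overlapped, with the old samples as the lowest and the highest, and the log2 difference was 0.060 (SE 0.141, adjusted p = 0.922, limma). The start-site peak (chr8:124946601-124950600) held 104, 132, 97.9 and 95.6 in old replicates 1 and 2 and young replicates 1 and 2. Both old samples were above both young ones there, by 0.28 on the log2 scale, and the adjusted p was 0.458. The difference was 0.12 without old replicate 2 and 0.44 (adjusted p = 0.0206) without old replicate 1.

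Deep in the Egln1 gene, 29.8 kb from its start, an intronic peak (chr8:124918701-124920400) held 20.2 and 27.1 in old and 12.3 and 11.9 in young replicates. It was higher in both old samples, with a log2 difference of 0.90 (SE 0.271, adjusted p = 0.101), the largest of the 42 peaks in that direction. It rested on 47, 89, 37 and 40 counts. Relative to the start-site peak of the same sample, a ratio chosen after the values were seen and not tested, it stood at 0.194 and 0.206 in old and at 0.125 and 0.124 in young samples. Without old replicate 1 (1 old against 2 young samples, with the lone old sample assumed to vary like the young), the difference was 1.11 with an adjusted p of 0.00515, and without old replicate 2 it was 0.71 (adjusted p = 0.214). The strongest Egln1 peak, 7800 bases wide in an intron (chr8:124921801-124929600), held 233, 294, 278 and 272, with overlapping groups.

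At Egln3 (chr12:54178981-54203860, minus strand) the scaled sums were 208 and 229.9 in old and 208 and 196 in young replicates, and the difference was 0.11 (SE 0.137, adjusted p = 0.825), between 0.052 and 0.18 with 1 library left out each. The start-site peak (chr12:54199801-54205700), which contains the Egln3 sequence shown, held 112, 119 and, in young, 109 and 107. Old was above young in both samples by a margin of 0.094 (adjusted p = 0.825). The 3 intronic peaks differed by 0.090 to 0.14, with overlapping groups at each.

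Hif1a encodes the widely expressed HIF-1 alpha subunit. The antisense gene Gm15283 overlaps all 10 of its peaks, so the signal cannot be given to Hif1a alone. Across the gene (chr12:73901375-73947530, plus strand) the scaled sums were 625 and 614 in old and 648 and 712 in young replicates. Both old samples were lower, and the difference was -0.13 (SE 0.113, adjusted p = 0.752). It was -0.066 without young replicate 2 and -0.20 without young replicate 1. The start-site peak (chr12:73904701-73912400), around the Hif1a sequence shown, held 227, 262, 249 and 232 in old replicates 1 and 2 and young replicates 1 and 2. The ages overlapped there, with a difference of 0.020 (adjusted p = 0.962), and the upstream peak and the peak at the other annotated start also overlapped.

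Further into Hif1a, 2 intronic peaks differed by -0.35 (chr12:73920701-73921100, overlapping groups) and by -0.25 (chr12:73923401-73925400, lower in both old samples). Over the last 23.1 kb of its peaks there were 5 adjoining segments (chr12:73930301-73953400), of which 3 were long. They ran over the last coding exons, the last untranslated exon and the DNA past the annotated end. The last 3 of them also overlap Gm49321. The second long segment holds the start of Gm49321 and the last holds the start of Gm15283, so their signal cannot be given to the end of Hif1a alone. The first of the 3 long segments held 35.3, 33.8, 42.5 and 42.7 in old replicates 1 and 2 and young replicates 1 and 2. In the same order, the second held 68.0, 66.5, 83.3 and 90.5 and the last held 123, 70.4, 119.8 and 135. The old samples were below the young ones in the first and second of these, and overlapped in the last because of old replicate 1. Their differences were -0.29, -0.36 and -0.44, with adjusted p-values of 0.526, 0.330 and 0.313.

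Between them lay 2 short segments with the largest negative differences among the peaks that moved in 1 direction in all 4 pairings of old with young samples. The first (chr12:73935701-73936300) held 3, 4, 5 and 21 counts, and the second (chr12:73945901-73946900) held 12, 11, 16 and 51. Both differed by -0.96 (adjusted p = 0.362 and 0.264), and in both young replicate 2 alone was high. Without young replicate 2 the differences were -0.24 and -0.28, and without young replicate 1 they were -1.67 and -1.64. With a correction for GC content and width they were -0.46 and -0.55. Summed over the 5 segments and divided by the start-site peak of the same sample, again a choice made after the values were seen, the ratio was 1.03 and 0.669 in old and 1.01 and 1.25 in young samples. It was lowest in old replicate 2, while old replicate 1 lay between the young samples. Without old replicate 1 the last long segment had a difference of -0.85 and an adjusted p of 1.1e-06.

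Epas1 encodes the HIF-2 alpha subunit, which is prominent in endothelial and stromal cells. Its scaled sums (chr17:86753700-86833410, plus strand) were 261 and 250.1 in old and 294 and 263 in young replicates, lower in both old samples by 0.12 on the log2 scale (SE 0.131, adjusted p = 0.809). Leaving out 1 library each put the difference between -0.20 and -0.045, the smallest being without young replicate 1. The start-site peak (chr17:86752501-86756500) held 100.3 and 89.4 in old and 132 and 106 in young samples. The groups did not overlap, and the difference was -0.32 (SE 0.177, adjusted p = 0.385), which was -0.16 without young replicate 1.

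Within Epas1 the differences had both signs, none past the threshold. The first intronic peak, 17.3 kb from the start (chr17:86769301-86772700), held 49.5 and 35.1 in old and 68.7 and 62.6 in young replicates, lower in both old samples by 0.64 on the log2 scale (SE 0.215, adjusted p = 0.140). The peak farthest into the gene, 63.0 kb from the start (chr17:86816401-86817000), held 9.04 and 7.93 in old and 3.32 and 5.94 in young replicates, higher in both old samples with a difference of 0.79 (SE 0.367, adjusted p = 0.293), which was 0.44 without young replicate 1. Of the 4 peaks between them, 3 were higher in both old samples, by 0.43, 0.30 and 0.46, and 1 overlapped. The margin was slight for the one at 0.30, where old replicate 1 and young replicate 1 both held 43.5. As a ratio to the start-site peak of the same sample, chosen after the values were seen, the first intronic peak stood at 0.494 and 0.392 in old and 0.519 and 0.593 in young samples. The other 5 intronic peaks together stood at 1.11 and 1.41 in old and 0.699 and 0.896 in young samples. Both ratios share the start-site peak as denominator, and the peaks were divided by the directions already seen, so the ratios are a description only. Without old replicate 1 the difference at the first intronic peak was -0.89, with an adjusted p of 0.000142, and without old replicate 2 it was -0.39 (adjusted p = 0.229).

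**Figure D3:**
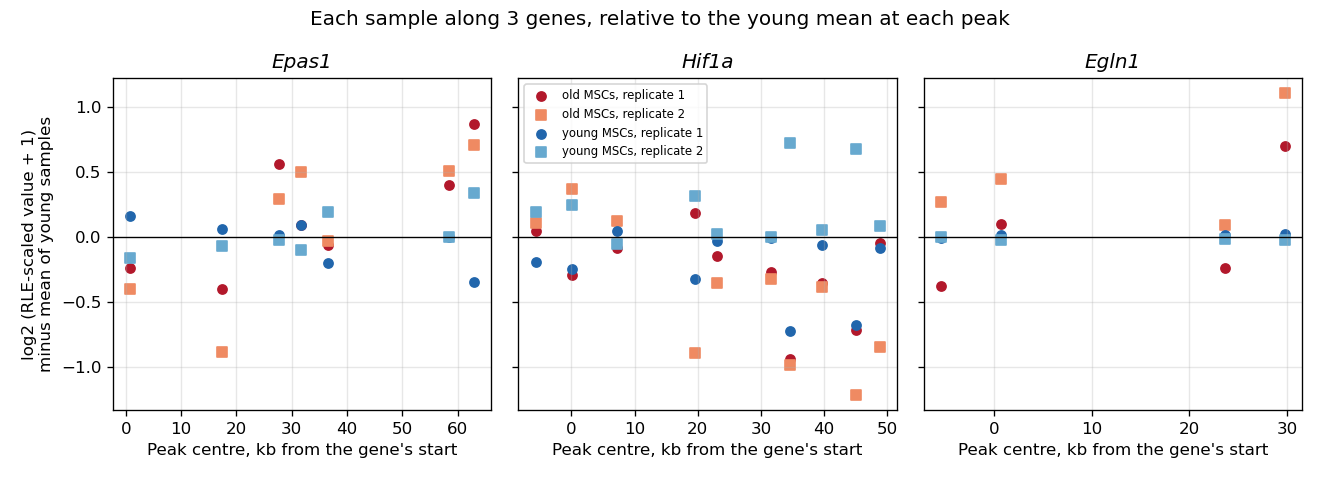
Position of each peak's centre from the start of the gene in kb (x axis) and log2 scaled value + 1 minus the mean of the young samples at that peak (y axis) for Epas1, Hif1a and Egln1, with 1 point per sample. In Epas1 both old samples lie under the young ones near the start and above them at 63.0 kb, in Hif1a the old samples are at or under the line from 23.0 kb on, and in Egln1 both old samples are above the young ones at 29.8 kb.

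Slc2a1 encodes the glucose transporter GLUT1. Its wide peak (chr4:119104701-119132400), which also covers Mir1957a and Gm12867, had the highest value of the 42 peaks and held 819 and 679 in old and 761 and 711 in young replicates. The old samples were the highest and the lowest, and the difference was 0.021 (SE 0.112, adjusted p = 0.950). A second peak over the end of the gene (chr4:119137701-119143900) held 64.5, 55.2, 77.0 and 62.6, with overlapping groups and a difference of -0.21 (adjusted p = 0.633). Summed over both, the difference was 0.0012 (SE 0.123, adjusted p = 0.998).

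Ldha, which makes lactate from pyruvate, had 2 strong start-site peaks. The one with the higher mean (chr7:46837701-46841200) ends shortly before the first annotated start and held 212, 221, 199 and 207 in old replicates 1 and 2 and young replicates 1 and 2. The other (chr7:46844501-46848000), which contains the Ldha sequence shown, held 139.8, 151, 162 and 154. The groups did not overlap in either, and they were in opposite order: the first was higher in old by 0.094 (adjusted p = 0.788) and the second was lower by 0.12 (adjusted p = 0.741). The sums over the gene were 352, 372, 364 and 361, a difference of -0.0036 (SE 0.121, adjusted p = 0.994). A peak of 100 bases between them held 0, 1, 10 and 1 counts, too few to be compared.

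Pdk1 encodes a pyruvate dehydrogenase kinase. At its start-site peak (chr2:71872401-71874800) the values were 114, 115, 113 and 130.0 in old replicates 1 and 2 and young replicates 1 and 2, and only young replicate 2 was apart. The difference was -0.081 (SE 0.165, adjusted p = 0.851). The peak on the last untranslated exon, 30.4 kb from the start (chr2:71902901-71904300), held 14.2 and 17.7 in old and 9.29 and 9.50 in young replicates. Both old samples were higher, by 0.70 on the log2 scale (SE 0.291, adjusted p = 0.239), the third largest positive difference of the 42 peaks.

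Bnip3 had the lowest gene-level p-value of the 10 genes. The scaled sums (chr7:138890836-138909519, minus strand) were 373 and 313 in old and 386 and 417 in young replicates, lower in both old samples, and the difference was -0.23 (SE 0.133, adjusted p = 0.642), between -0.36 and -0.096 with 1 library left out each. Nearly all of it lay in the start-site peak (chr7:138905501-138911000), which contains the Bnip3 sequence shown and held 348, 281, 358 and 381, with a difference of -0.24 (SE 0.134, adjusted p = 0.398). Old replicate 1 was close to young replicate 1, and old replicate 2 was the low sample. Without old replicate 1 the difference at this peak was -0.39 with an adjusted p of 0.000886, and without old replicate 2 it was -0.074 (adjusted p = 0.739).

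Vegfa encodes the growth factor that drives blood vessel formation. Its start-site peak (chr17:46024301-46034000) held 189.8 and 269.9 in old and 199 and 182 in young replicates, and its difference was 0.25 (SE 0.164, adjusted p = 0.474). Old replicate 2 alone was high, while old replicate 1 lay between the young samples. The sums over the gene were 254, 335, 267 and 229, the difference was 0.24 (SE 0.160, adjusted p = 0.681), and without old replicate 1 the start-site difference was 0.50 with an adjusted p of 0.000284. Without old replicate 2 it was 0.0068 (adjusted p = 0.986), and with the correction for GC content and width it was 0.14.

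Ankrd37 is a small gene whose start-site peak (chr8:45997901-46001100) also holds the start of its neighbour Lrp2bp, so the signal cannot be divided between them. It held 132, 143, 139 and 142 in old replicates 1 and 2 and young replicates 1 and 2, overlapping and within a narrow range. The difference was -0.032 (SE 0.156, adjusted p = 0.943), and over the gene it was -0.031 (SE 0.146, adjusted p = 0.961).

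**Figure D4:**
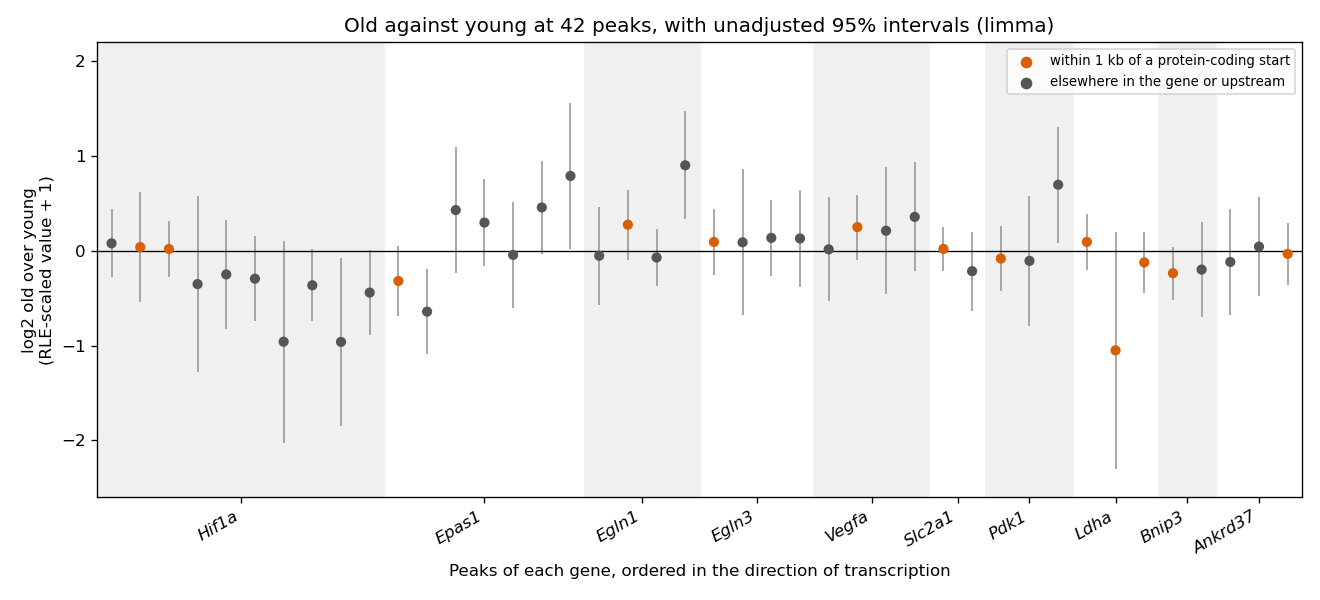
Log2 difference of old over young with its unadjusted 95% interval (limma) for each of the 42 peaks, grouped by gene and ordered along transcription, with peaks at protein-coding starts in orange. The start-site peaks lie between -0.32 (Epas1) and 0.28 (Egln1) apart from a 100-base Ldha peak with 0 to 10 counts, and the 5 intervals that leave out 0 are at Hif1a, Epas1 (2 peaks), Egln1 and Pdk1, none past the adjusted threshold.

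Leaving out old replicate 1 gave 5 member peaks past an adjusted p of 0.01, those named at Bnip3, Hif1a and Epas1, which were lower, and at Egln1 and Vegfa, which were higher. This was 11.9% of the members, when 8.83% of all peaks passed in the same fit (5.52% lower and 3.31% higher), and the lone old library was then the whole of the old group. By gene, Bnip3 passed as lower and Vegfa as higher, against 10.4% and 11.9% of all genes, 22.4% together. Leaving out any of the other 3 libraries gave 0 member peaks and 0 member genes. Of all peaks, 1176 were then lower and 502 higher without old replicate 2, 1 lower and 7 higher without young replicate 1, and 0 in either direction without young replicate 2.

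The wider pathway was read from 4 lists with 73 further genes and 274 peaks. None of these peaks or genes passed an adjusted p of 0.01 (limma), and 34 peaks (12.4%) had an unadjusted p under 0.05, where 16.4% of all peaks did. Of these, 12 were lower (4.38%; 8.87% of all peaks) and 22 higher in old MSCs (8.03%; 7.49% of all peaks). The medians of the peak differences were 0.034 for 14 partners and sensors of HIF, 0.0036 for 22 genes of glucose uptake, glycolysis and lactate, 0.0051 for 17 genes of mitochondria, mitophagy, pH and stress, and 0.037 for 20 secreted, vascular and matrix targets, against 0.0011 over all peaks. The RLE factors set the typical peak near 0. As deposited, the medians of the 4 lists in the same order were -0.25, -0.28, -0.27 and -0.24, with 72% to 78.0% of their peaks lower in old MSCs, against -0.27 and 74.6% over all peaks.

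Among the partners, the largest gene-level differences were -0.27 at Hif3a, another HIF alpha gene, and 0.36 at Ep300, a histone acetyltransferase that serves as a HIF coactivator. At Ep300 the groups overlapped, with 131 and 199 in old and 143 and 111 in young replicates, and old replicate 2 alone was high. Eloc, an elongin subunit of the ubiquitin ligase that removes HIF, stood at -0.16, and Vhl, its recognition subunit, at 0.15. The groups also overlapped at Eloc, with 358 and 274 in old and 345 and 355 in young replicates, and old replicate 2 alone was low. The adjusted p-values of the partners named here were 0.649 or more.

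Among the glycolysis genes, Pgk1, which encodes phosphoglycerate kinase, was at 179 and 167 in old and 216 and 236 in young replicates. It was lower in both old samples, by 0.38 on the log2 scale, and its adjusted p was 0.558. Pdk4, a relative of Pdk1, stood at -0.29, and the aldolase gene Aldoc at 0.32. The pyruvate kinase gene Pkm stood at 0.31, with 324 and 518 in old and 338 and 324 in young replicates, so that the groups overlapped and old replicate 2 alone was high. An adjusted p under 0.05, which 1.12% of all peaks reached, was seen at 2 peaks of this list. A peak 2318 bases upstream of Pfkl, a phosphofructokinase gene, held 33.6 and 43.0 in old and 15.3 and 16.9 in young replicates (chr10:78012401-78013600). Its difference was 1.19 (SE 0.245, adjusted p = 0.0281). The Aldoc start-site peak (chr11:78322001-78323500), which overlaps Spag5, held 22.4, 23.8, 10.6 and 8.90, a difference of 1.17 (SE 0.273, adjusted p = 0.0461). Both old samples were above both young ones at each.

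Among the mitochondrial, pH and stress targets, Car9, which encodes the cell surface carbonic anhydrase IX, was at 142 and 152 in old and 102 and 104 in young replicates, higher in both old samples with a difference of 0.51 (SE 0.155, adjusted p = 0.449). Bhlhe41, a circadian repressor, stood at 0.46, and Bnip3l, the close relative of Bnip3, and Kdm4c, a histone demethylase, at -0.22 and -0.19. Among the secreted targets, Adm, which encodes the vasodilator adrenomedullin, stood at 0.38. Pgf, a placental relative of Vegfa, stood at 0.26 and Igfbp3, an IGF-binding protein gene, at -0.18. At Pgf the groups overlapped, with 62.8 and 96.1 in old and 62.4 and 67.4 in young replicates, and old replicate 2 alone was high.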

How the data were processed

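ATAC-seq values of 2 old and 2 young MSC samples were analysed. Per the study's methods, the authors aligned the reads to mm10 (bowtie2), discarded duplicates (Picard) and called peaks with chromstaR, which also gave the values. These steps are described for other cells of the study, and tool versions are not given in the sources used here. The deposited values, named RPKM by the authors and treated as a score, were counts per 10000000 of the library total, not divided by peak length (100% of values were whole counts within 0.01 in each sample).

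Values were divided by RLE factors, and log2(value + 1) was tested with limma 3.58.1 in R 4.3.3 (trend and robust moderation), over 117282 peaks and, summed per gene, over 17308 protein-coding genes, with Benjamini-Hochberg adjustment and a threshold of 0.01. The spread is estimated from 2 samples a group and is moderated across peaks. Genes and exons came from GENCODE vM21. Summaries used Python 3.11.15, numpy 2.4.6, pandas 2.3.3, scipy 1.17.1 and matplotlib 3.10.9. Members, lists and tests were chosen with earlier results of these data known. The peaks named are each member's start-site peak, the 3 largest differences in each direction among peaks that moved alike in all 4 pairs, and 2 genes a direction per wider list with the list peaks at an adjusted p under 0.05, of which some listed genes are not reported here; other member peaks, including those at Ldha, Slc2a1 and the long Hif1a segments, were chosen after their values were seen. On simulated counts the peak test recovered 23% of 100 log2 changes of 1 and 93% of 100 changes of 2, with 0 false calls, over 117282 peaks. The gene test recovered 80% and 100%, with 2 false calls, over 17308 genes. In both, changes were placed only in features above a minimum mean count, and every feature and library had the same dispersion. These rates therefore do not cover peaks with few counts or a library that stands apart from its replicate. Alternatives covered scaling, pseudocounts, filters, windows, limma-voom on recovered counts, a GC and width correction, blocks and leaving out each sample. Counting error alone underlies the limits set by 3 counts.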

Additional observations from a re-analysis of the deposited data

How the results depend on the processing

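The absence of a member peak or gene past the threshold held under every alternative run except the one without old replicate 1. Leaving out 1 library each gave 0 to 3 member peaks lower and 0 to 2 higher, 0 to 1 member genes lower and 0 to 1 higher, and 0 to 14 wider-list peaks lower and 0 to 15 higher. The highest counts, without old replicate 1, were 5.11% and 5.47% of the list peaks, against 5.52% and 3.31% of all peaks. In the wider lists, 1 peak was lower with the GC and width correction (0.0955% of all peaks), 1 was higher with the replicate block (0.309% of all peaks), and at an adjusted p of 0.05 there were 1 lower and 2 higher. The same-numbered samples did not deviate together (correlation -0.0993 over 117282 peaks), and the replicate block gave 0 member peaks and 0 member genes in each direction.

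RLE factors, quantile normalization and equal total signal each remove a library-wide offset by design, so they do not test the deposited offset. In that order, the median over the member peaks was -0.0083, 0.0061 and 0.060, and the share lower in old MSCs was 50%, 47.6% and 42.9%. On the values as deposited, leaving out 1 library each put the median between -0.52 and -0.030 and the share between 57.1% and 85.7%. The offset was weakest without old replicate 1.

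Of 257 values of single genes and peaks under alternatives other than leaving out a library, 20 changed sign, 10 of them on the values as deposited. There the gene sums of Egln1, Egln3, Vegfa and Slc2a1 were -0.23, -0.17, -0.049 and -0.29, and the start-site peaks of Hif1a, Egln1, Egln3, Vegfa, Slc2a1 and Ldha were -0.27, -0.011, -0.19, -0.037, -0.27 and -0.19. With quantile normalization the sums of Pdk1, Ldha and Ankrd37 were 0.011, 0.027 and 0.0019 and the Ankrd37 start-site peak 0.012, and with equal total signal they were 0.060, 0.065, 0.038 and 0.036. The Ldha sum was 0.0054 with 20 kb upstream, and the Slc2a1 start-site peak was -0.084 with the GC and width correction. The sign depended on 1 library for 9 of 26 single results, which ranged as follows: the sums of Egln1 from -0.11 to 0.24, Slc2a1 from -0.13 to 0.14, Pdk1 from -0.11 to 0.087, Ldha from -0.035 to 0.035 and Ankrd37 from -0.15 to 0.094, and the start-site peaks of Hif1a from -0.074 to 0.12, Slc2a1 from -0.12 to 0.17, Pdk1 from -0.18 to 0.015 and Ankrd37 from -0.081 to 0.023. A count test with edgeR, planned as an alternative, was not run. Pooling of the spread lets a lone old sample be tested only by assuming that it varies like the young. Depth limited the 2 short Hif1a segments, with 3 to 21 and 11 to 51 counts, and the 100-base Ldha peak, with 0 to 10.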
